A study of Mus musculus with 9 samples.

Results

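The Zfp genes, named for zinc finger proteins, were described by CpG methylation in WT, *Dnmt3a* KO and *Dnmt3b* KO embryonic stem cells (ESCs). Members were all protein-coding genes whose symbol starts with Zfp and a number, on chromosomes 1–4 and 10–19 as far as the WT table reaches. The rule found 189 members with 187 different symbols, of 14278 protein-coding genes in the same part of the mm9 genome. The annotation holds 371 Zfp genes in all, of which 179 lie on chromosomes 5–9, X and Y, where WT was not analysed. The choice used names and positions and no methylation value.

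The cells were J1 mouse ESCs of the 129S4/SvJae strain, either WT or with *Dnmt3a* or *Dnmt3b* knocked out. All 3 genotypes were grown on gelatin in medium with serum and LIF, and the knockouts came from earlier derived lines at similar passage numbers. Whole genome bisulfite sequencing (WGBS) reads the share of unconverted, that is methylated, cytosines at each CpG. Each genotype had 3 libraries, 9 libraries in all, which were pooled before deposit, so that 1 value per genotype is available without replicate error and none of the differences below could be tested. Ranges in parentheses are 95% intervals by the method of Wilson for levels and of Newcombe for differences. They cover counting error only and leave out the spread between libraries. Every read at every CpG is counted as independent in them. Reads after PCR and neighbouring CpGs on the same read are not, so that the intervals can be too narrow. Where 3 levels of a gene are listed in a row, they stand for WT, *Dnmt3a* KO and *Dnmt3b* KO in this order.

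C2H2 zinc finger proteins bind DNA through strings of short fingers, in which a pair of cysteines and a pair of histidines hold a zinc ion. Many also carry a KRAB domain, which recruits TRIM28 and with it the histone methyltransferase SETDB1, and this machinery silences transposable elements in ESCs. In mammals the genes often stand in tandem clusters, and the fingers are usually encoded together by the last exon. DNMT3A and DNMT3B are the methyltransferases that set new DNA methylation, and both are present in ESCs. ZFP57, a KRAB zinc finger protein, binds the methylated allele of imprinted regions and helps keep it methylated.

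Of the 189 members, 178 encoded at least 1 canonical C2H2 finger and 69 carried a KRAB pattern in the translated coding sequence. The median was 9.0 fingers, and *Zfp142* had the most with 36. The 11 members without a canonical finger included *Zfp36l1* and *Zfp36l2*, whose fingers are of the CCCH type and bind RNA. In the members with several exons, 80.4% of the 1788 fingers lay in the last exon, which was 2327 bp long at the median against 1011 bp over all genes. Chromosome 17 held 45 members and chromosome 13 held 38.

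The 3 tables had similar depth at the members. The median over members of the mean reads per CpG was 19.1 to 24.7 in the promoter, body and last exon of the 3 genotypes, and at least 3 reads in every genotype were required of each CpG. As a check of the genotypes, the longest run of listed CpGs without reads within *Dnmt3b* was 30 CpGs in *Dnmt3b* KO against 0 in WT and *Dnmt3a* KO, and within *Dnmt3a* it was 12 in *Dnmt3a* KO against 6 in WT and 3 in *Dnmt3b* KO. The second contrast is weak. The promoters of the ESC genes *Pou5f1*, *Sox2*, *Klf4* and *Esrrb* were at 0.299%, 0%, 0.118% and 12.3% in WT. No RNA was measured in these tables.

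The letters around the starts show what kinds of promoter the members have. In the sequences below each CpG is written in capitals, and the 3 stretches of 250 bases of mm9 were chosen as a CpG-rich start, the CpG-rich upstream start of *Zfp57*, and a CpG-poor methylated start. *Zfp281*, a transcription factor of the pluripotency network, is shown at chr1:138521228-138521477 on the plus strand, where 19 CpGs were at 0% in WT, 0% in *Dnmt3a* KO cells and 0.899% in *Dnmt3b* KO. *Zfp57* is shown at chr17:37139733-37139982 on the plus strand, where 20 CpGs were at 0.716%, 0% and 0.156%. *Zfp957* is shown at chr14:79647177-79647426 on the minus strand, where 4 CpGs were at 100%, 69.7% and 90.8%.
Zfp281: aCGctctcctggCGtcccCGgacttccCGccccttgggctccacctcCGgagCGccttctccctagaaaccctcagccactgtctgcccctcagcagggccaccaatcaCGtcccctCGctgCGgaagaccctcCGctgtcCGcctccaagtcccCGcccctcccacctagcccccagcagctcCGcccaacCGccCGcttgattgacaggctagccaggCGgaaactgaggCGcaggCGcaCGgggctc
Zfp57: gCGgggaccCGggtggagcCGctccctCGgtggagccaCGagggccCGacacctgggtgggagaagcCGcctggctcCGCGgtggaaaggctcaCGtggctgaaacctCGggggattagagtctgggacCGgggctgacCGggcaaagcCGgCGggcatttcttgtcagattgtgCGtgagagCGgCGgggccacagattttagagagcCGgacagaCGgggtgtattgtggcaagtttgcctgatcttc
Zfp957: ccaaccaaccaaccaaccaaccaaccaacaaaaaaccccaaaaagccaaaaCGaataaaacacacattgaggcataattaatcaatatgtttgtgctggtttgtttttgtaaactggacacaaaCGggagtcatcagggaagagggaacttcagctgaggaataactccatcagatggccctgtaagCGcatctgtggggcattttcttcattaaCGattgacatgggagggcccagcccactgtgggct
The first 2 stretches hold many CpGs and had almost no methylated read in any genotype. The third holds few CpGs and fell from 100% in WT to 69.7% without DNMT3A. It is not typical, as the 30 promoters at 80% or more in WT had a median of 57.9% in *Dnmt3a* KO.

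At promoters, most Zfp genes were already unmethylated in WT. With the promoter taken as the 500 bp on both sides of the annotated start, 186 of the 189 members had at least 3 usable CpGs, and *Zfp616*, *Zfp799* and *Zfp825* did not. The median promoter level was 4.28% in WT, 0.787% in *Dnmt3a* KO cells and 1.93% in *Dnmt3b* KO, against 10.1%, 1.86% and 5.40% over the 13912 promoters of all genes. In WT 137 Zfp promoters (73.7%) were below 20%, 19 (10.2%) were between 20% and 80%, and 30 (16.1%) were at 80% or more. Over all genes these shares were 57.1%, 11.7% and 31.1%. The profile around the start shows the same order, since the mean over members in the 250 bp before the start was 17.3% in WT, 8.90% in *Dnmt3a* KO cells and 13.6% in *Dnmt3b* KO, against 32.6%, 16.4% and 27.9% over all genes.

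A promoter was counted as lower when it lost more than 20 percentage points against WT. In *Dnmt3a* KO this held for 41 of 186 Zfp promoters (22%), where the background over all genes was 38%. In *Dnmt3b* KO it held for 5 of 186 (2.69%), where the background was 4.78%. Both knockouts are set against the same WT reads. No member was higher by more than 20 points in either knockout, where the background was 0% in *Dnmt3a* KO cells and 0.0359% in *Dnmt3b* KO. In direction, 175 promoters were lower in *Dnmt3a* KO and 11 were higher, and the interval of the difference lay below 0 for 135 (72.6%, against 77.5% of all genes). In *Dnmt3b* KO 159 were lower and 27 were higher, with the interval below 0 for 99 (53.2%, against 53.5%).

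**Figure D1:**
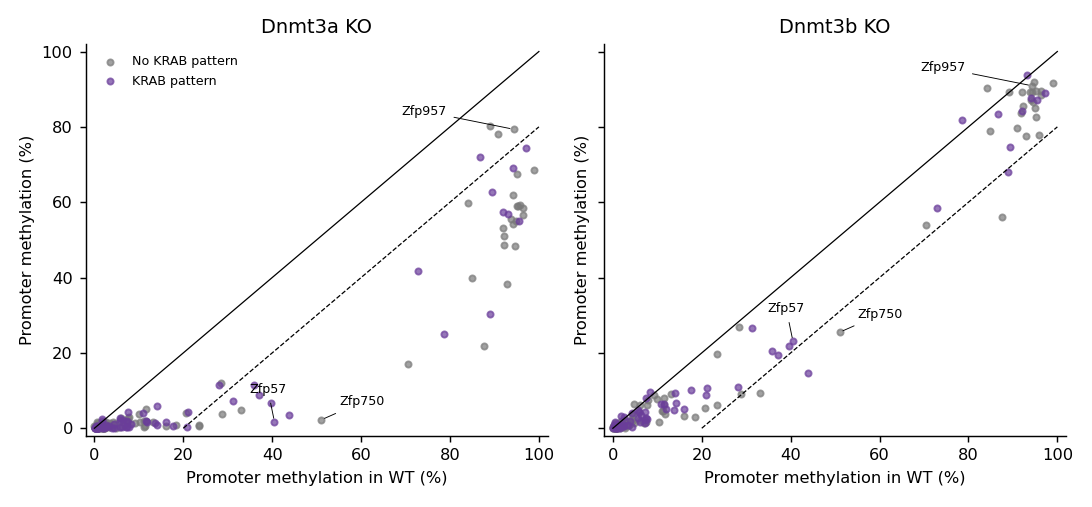
Promoter methylation of 186 Zfp genes in *Dnmt3a* KO (left) and *Dnmt3b* KO (right) against WT, as the percent of CpG reads within 500 bp of the start that were methylated, with 1 point per gene coloured by the KRAB pattern. The solid line marks equal levels and the dashed line a loss of 20 points; 41 points lie beyond the dashed line on the left and 5 on the right.

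The 19 intermediate promoters fell to a low median in *Dnmt3a* KO, though single members kept up to 41.7% (*Zfp459*, 72.9% in WT). The median of these 19 promoters was 33.0% in WT, 4.89% in *Dnmt3a* KO cells and 19.7% in *Dnmt3b* KO, and 15 (78.9%) and 3 (15.8%) of them were lower by more than 20 points, against 77.2% and 19.9% of such promoters over all genes. *Zfp750*, a regulator of epidermal differentiation, was at 51.0% over 18 CpGs in WT, at 2.23% in *Dnmt3a* KO cells and at 25.5% in *Dnmt3b* KO. *Zfp879* was at 43.8%, 3.58% and 14.8% over 23 CpGs, and *Zfp663* at 33.0%, 4.89% and 9.36% over 32 CpGs. These 3 were the intermediate promoters counted as lower in *Dnmt3b* KO as well. *Zfp532*, at 23.4%, 0.634% and 19.7% over 38 CpGs, lost its methylation in *Dnmt3a* KO cells and little of it in *Dnmt3b* KO.

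The 30 methylated promoters went to a median of 57.9% in *Dnmt3a* KO cells and 87.1% in *Dnmt3b* KO from 93.96% in WT. Of these, 26 (86.7%) and 2 were lower by more than 20 points, and over all genes with such promoters the shares were 93.1% and 7.87%. They were CpG poor, with a median observed over expected CpG ratio of 0.189 against 0.672 for the members below 20%. Over the 186 promoters this ratio and the WT level had a Pearson r of -0.726 and a Spearman rho of -0.727, given as a description of genes that share the same reads. The highest in *Dnmt3a* KO kept 80.2%. Among the large losses were those of *Zfp72*, which was at 92.9%, 38.3% and 77.6%, and of *Zfp639*, at 94.6%, 48.4% and 86.6%.

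At the other end, 4 methylated promoters did not lose more than 20 points in *Dnmt3a* KO. *Zfp957*, of which a stretch with 4 CpGs is shown above, was at 94.3% (90.6% to 96.6%), 79.4% (73.6% to 84.2%) and 90.9% (86.9% to 93.8%) over the 11 CpGs of the whole window. The interval of its loss in *Dnmt3a* KO ran from -21.1 to -8.89 points. *Zfp125* was at 90.9%, 78.0% and 79.6%, one of the 2 genes with the symbol *Zfp708* (ENSMUSG00000074824.1) at 89.1%, 80.2% and 89.2%, and *Zfp934* at 86.7%, 72.0% and 83.3%. *Zfp640* kept 74.3% in *Dnmt3a* KO from 97.1%, over 3 CpGs. *Zfp125* rests on 9 CpGs, this *Zfp708* on 5 and *Zfp934* on 4. The intervals of their losses ran from -20.6 to -4.99, from -18.8 to 0.872 and from -29.2 to -2.10 points. For this *Zfp708* no loss was detectable at this depth. A loss of more than 20 points is within the intervals of *Zfp957*, *Zfp125* and *Zfp934*. In *Dnmt3b* KO the levels of *Zfp563* (93.1% in WT, 93.7%) and of the other *Zfp708* (84.1% in WT, 90.3%) were not below WT, and *Zfp366* fell to 77.7% from 95.8%. *Zfp53* was at 88.9%, 30.4% and 68.1% over only 3 CpGs.

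Of the 30 genes with a methylated promoter, 9 have another annotated start more than 1000 bp away. At *Zfp62*, *Zfp287* and 1 of the 2 genes with the symbol *Zfp708* such a start was below 20% in WT. Over all genes, 1057 of 4332 with a methylated promoter have another start at this distance, and in 303 such a start was below 20%. *Zfp57* shows how much the choice of start matters. Its isoform with the longest coding sequence starts at position 37140611 of chromosome 17, and this window was at 40.5% (35.2% to 46.0%) in WT, 1.72% (0.670% to 4.33%) in *Dnmt3a* KO cells and 23.1% (18.5% to 28.4%) in *Dnmt3b* KO over 12 CpGs. The window around its start at 37139983, just downstream of the sequence printed above, was at 3.68%, 0.193% and 0.980% over 48 CpGs. The outermost start at 37138108 was at 86.1%, 28.8% and 80.6% over 8 CpGs. Windows around neighbouring starts of *Zfp57* thus ranged from unmethylated to methylated in WT, and the value given for its promoter stands for 1 of them.

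Of the 10 members of a list of known genes, 9 had an unmethylated promoter and *Zfp57* an intermediate one at the start used here, and 73.7% of all members were below 20%. *Zfp281*, *Zfp36l1*, *Zfp36l2*, *Zfp322a*, *Zfp521*, *Zfp345*, *Zfp64*, *Zfp217* and *Zfp462* were all at or below 2.11% in WT, so that a loss of 20 points was not possible there. *Zfp36*, *Zfp93* and *Zfp600* are not members, as they lie outside the part that all tables share. Nearest to the limits of the classes, *Zfp740* at 18.4% and *Zfp953* at 17.7% lay just below 20% in WT, *Zfp35* at 20.6% and *Zfp595* at 20.9% just above it, *Zfp87* at 78.6% just below 80% and *Zfp708* at 84.1% just above it.

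In gene bodies, every Zfp gene with a value lost methylation in *Dnmt3a* KO. The body was taken from 500 bp past the start to the end of the gene, and 187 members had at least 3 usable CpGs, *Zfp125* and 1 of the 2 genes with the symbol *Zfp738* not. The median body was at 86.9% in WT, 49.7% in *Dnmt3a* KO cells and 78.8% in *Dnmt3b* KO, and over all genes at 87.6%, 51.2% and 79.6%. The median loss over members was -34.9 points in *Dnmt3a* KO cells and -7.74 points in *Dnmt3b* KO, against -34.6 and -7.43 points over all genes. In *Dnmt3a* KO all 187 were lower with the interval of the difference below 0, as was the case for 99.3% of all genes, and 181 (96.8%) lost more than 20 points, where the background was 94.7%. In *Dnmt3b* KO 185 were lower, 12 (6.42%) by more than 20 points, where the background was 3.37%. No body was higher by more than 20 points, where the background was 0% and 0.0149%.

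**Figure D2:**
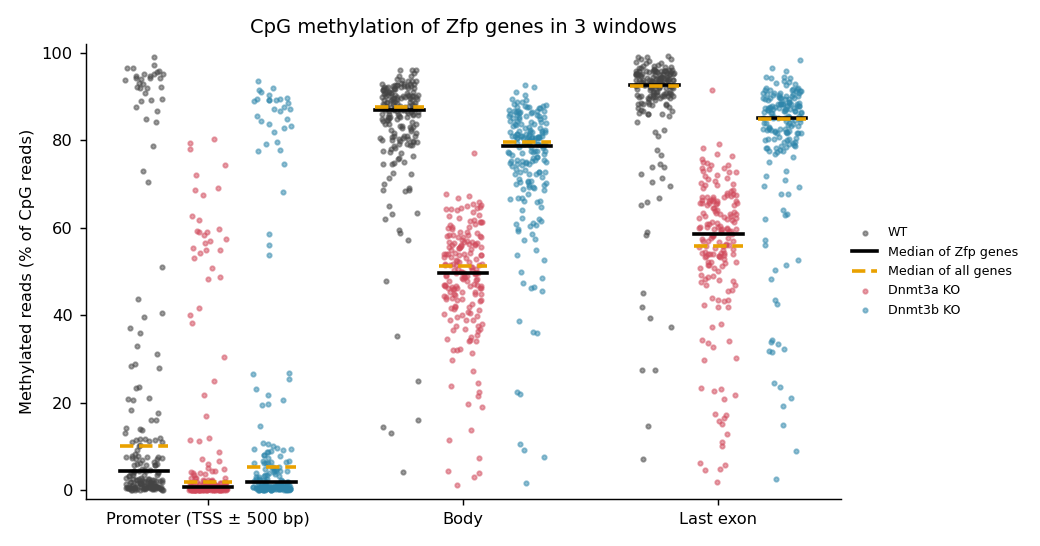
CpG methylation of Zfp genes at the promoter, in the body and in the last exon, as the percent of CpG reads that were methylated, with 1 point per gene and genotype, black lines for the median of Zfp genes and dashed lines for the median of all protein-coding genes. The medians of bodies and last exons are 49.7% and 58.5% in *Dnmt3a* KO cells and 78.8% and 85.04% in *Dnmt3b* KO, and the promoter medians of Zfp genes lie below those of all genes in all 3 genotypes.

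Among bodies with at least 10 CpGs and 80% or more in WT, *Zfp57* lost the most in both knockouts, from 88.6% (87.1% to 90.0%, 65 CpGs) in WT to 19.8% (17.8% to 21.9%) in *Dnmt3a* KO cells and 59.3% (56.9% to 61.6%) in *Dnmt3b* KO. *Zfp839* was at 85.5%, 35.4% and 74.7%. *Zfp408* fell by 25.1 points in *Dnmt3b* KO, from 80.1% to 55.01%. At the other end, *Zfp640* kept 77.1% in *Dnmt3a* KO from 91.9%, *Zfp938* kept 65.8% from 89.7% and *Zfp488* kept 64.3% from 87.9%. In *Dnmt3b* KO *Zfp429* (80.4% in WT, 81.4%) and *Zfp3* (87.1% in WT, 86.4%) had the smallest differences, followed by *Zfp934* (92.9% in WT, 91.1%). The other 5 bodies that lost less than 20 points in *Dnmt3a* KO were low in WT, at 4.21% in *Zfp503*, 13.2% in *Zfp36l2*, 14.5% in *Zfp648*, 16.02% in *Zfp36l1* and 24.95% in *Zfp830*.

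*Zfp281* stood out from the medians in *Dnmt3b* KO, where its body was at 36.2% (34.0% to 38.5%) after 68.6% (66.3% to 70.8%) in WT, and at 23.8% (21.9% to 25.9%) in *Dnmt3a* KO. Together with *Zfp57* and *Zfp408* it was among the 12 bodies lower by more than 20 points there, which also included *Zfp13*, *Zfp457*, *Zfp593*, *Zfp647*, *Zfp672*, *Zfp691*, *Zfp707* and *Zfp740*. *Zfp64* came close with 74.5%, 36.3% and 57.5%, and *Zfp217*, whose product works in corepressor complexes, was at 83.8%, 46.1% and 70.2%. *Zfp462*, which encodes a large protein bound by HP1, was at 88.4%, 53.9% and 80.8%, and the progenitor factor *Zfp521* at 90.4%, 55.7% and 84.9%. *Zfp345* was at 92.4%, 51.4% and 85.1%, and *Zfp322a* at 83.7%, 49.6% and 81.0%. In *Dnmt3b* KO these 4 genes stayed above the median body of the members.

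The last exon, which holds most fingers, was the most methylated of the 3 windows. Not every last exon is a finger exon, as it held every finger in 124 members and no finger in 40. It was taken whole, also where it reaches into the promoter window, and had at least 3 usable CpGs in 177 members. Of the 12 others, *Zfp518a*, *Zfp648*, *Zfp738* (1 of 2 genes) and *Zfp830* have a single exon, and the rest had too few CpGs, among them *Zfp125*, *Zfp521*, *Zfp640* and *Zfp950*. The median was 92.6% in WT, 58.5% in *Dnmt3a* KO cells and 85.04% in *Dnmt3b* KO, against 92.4%, 55.9% and 84.8% over all genes. In *Dnmt3a* KO 160 of 177 (90.4%) lost more than 20 points, where the background was 90%. In *Dnmt3b* KO 20 (11.3%) did, where the background was 9.34%. The member shares were near the background in both knockouts. No last exon was higher by more than 20 points, where the background was 0% and 0.0452%. All 177 were lower in *Dnmt3a* KO, 176 with the interval below 0 (99.4%, against 98.6% of all genes), and 169 were lower in *Dnmt3b* KO, 143 with the interval below 0 (80.8%, against 70.2%). Intervals narrow with the number of CpGs, whose median was 26 in the last exons of members and 16 over all genes. The median difference in *Dnmt3b* KO was -7.41 points for members and -7.25 points over all genes.

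*Zfp57* again lost the most in *Dnmt3a* KO, from 87.3% (84.7% to 89.6%) over 29 CpGs in WT to 17.1% (14.6% to 19.98%) in *Dnmt3a* KO cells and 57.2% (53.7% to 60.6%) in *Dnmt3b* KO. The differences were -70.2 points (-73.6 to -66.3) and -30.1 points (-34.3 to -25.8). *Zfp366*, known from dendritic cells, was at 93.2%, 33.7% and 82.1%, and *Zfp532* at 90.7%, 34.3% and 78.6%. Both kept most of their methylation in *Dnmt3b* KO. Among last exons at 80% or more in WT with at least 10 CpGs, *Zfp219* had the largest loss in *Dnmt3b* KO, from 80.9% to 48.3%, with 42.4% in *Dnmt3a* KO, and *Zfp408* was at 94.4%, 48.6% and 67.8%. Among methylated last exons with at least 10 CpGs, the least was lost in *Dnmt3a* KO by those of *Zfp407* (95.8%, 79.1% and 94.4%), *Zfp160* (92.1%, 75.8% and 90.2%) and *Zfp960* (86.6%, 71.4% and 87.2%). *Zfp2* (95.9% in WT, 96.5%) and *Zfp3* (90.1% in WT, 92.0%) were not lower in *Dnmt3b* KO. The highest last exon in *Dnmt3a* KO was that of *Zfp386* at 91.5% after 93.3% in WT, chosen after its value was seen and resting on 6 CpGs.

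A small group of last exons was not fully methylated in WT and had low medians in both knockouts. In WT 155 last exons were at 80% or more, 20 between 20% and 80%, and 2 below 20%, *Zfp503* at 7.11% and *Zfp36l2* at 14.7%. The 20 had a median level of 66.3% in WT, 19.1% in *Dnmt3a* KO cells and 34.1% in *Dnmt3b* KO, and 17 (85%) and 11 (55%) of them were lower by more than 20 points, against 86.5% and 32.9% over all genes of this class. The 155 were at 93.3%, 60.1% and 86.4%, and 143 (92.3%) and 9 (5.81%) of them were lower by more than 20 points, against 93% and 6.72%. The median CpG density was 3.09 CpGs per 100 bp in the 20 and 1.14 in the 155. *Zfp64* was at 59.0% (57.0% to 61.0%), 15.1% (13.5% to 16.9%) and 20.98% (19.4% to 22.7%) over 79 CpGs. *Zfp281* was at 58.2% (56.0% to 60.4%), 21.8% (20.04% to 23.7%) and 32.2% (30.1% to 34.3%) over 87 CpGs. Its last exon begins within 500 bp of the start, so that some of these CpGs also belong to its unmethylated promoter window. The others are the 69 CpGs of its body, so that its body and last exon are not separate findings. *Zfp647* was at 66.8%, 6.25% and 31.6% over 78 CpGs, while its promoter was methylated at 96.4%, 58.4% and 88.4%. *Zfp385b*, at 65.8%, 4.54% and 50.4%, lost nearly all in *Dnmt3a* KO cells and less in *Dnmt3b* KO.

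Across 147 members with at least 10 CpGs in the last exon, CpGs per 100 bp and the level in *Dnmt3a* KO had a Pearson r of -0.684 and a Spearman rho of -0.421. The number of fingers and this level had an r of 0.301 and a rho of 0.306. The level of the last exon in WT and that in *Dnmt3a* KO had an r of 0.801 and a rho of 0.618. Fingers were counted over the whole protein and CpG density over the last exon, so that these properties do not always concern the same exon.

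**Figure D3:**
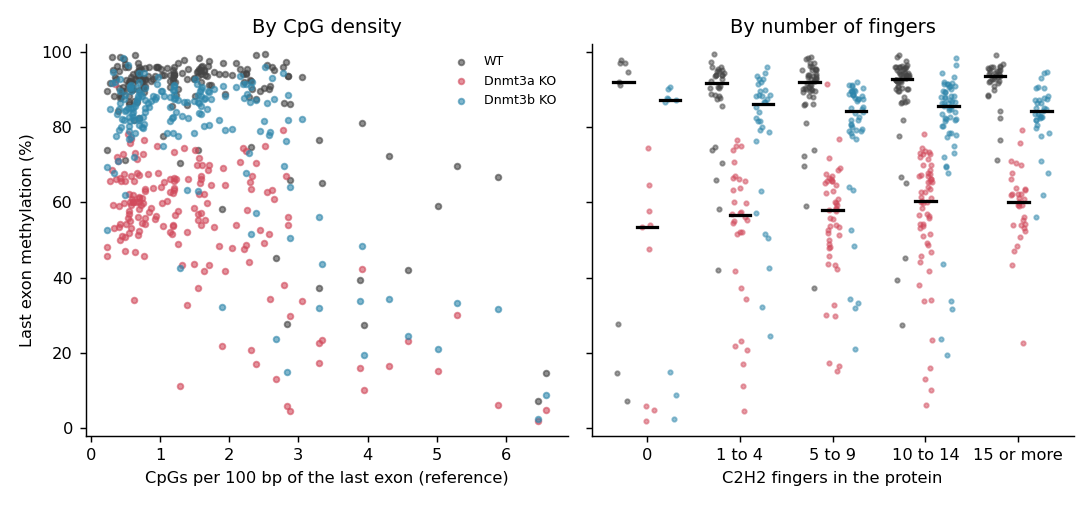
Last exon methylation (percent of CpG reads that were methylated) of Zfp genes in the 3 genotypes, against the CpGs per 100 bp of the exon (left) and by the number of C2H2 fingers in the protein, with black lines for medians (right). Many of the low levels are in exons of high CpG density. From 0 fingers to 15 or more, the group medians in *Dnmt3a* KO are 53.4%, 56.5%, 57.9%, 60.4% and 60.1%. The group with 0 fingers has only 9 genes, with quartiles of 5.79% and 57.7% in *Dnmt3a* KO.

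The last exon was compared with the rest of the body of the same gene. In 175 members with both values, the last exon was higher by a median of 6.01 points in WT, 11.1 points in *Dnmt3a* KO cells and 6.93 points in *Dnmt3b* KO, and it was the higher one in 139, 133 and 137 of them. Over 10890 genes the medians were 4.96, 6.12 and 5.79 points. The last exon was the higher one in 76.4%, 66.4% and 71.6% of these genes, against 79.4%, 76% and 78.3% of the members. For 119 members with at least 900 coding bases in the last exon they were 6.23, 10.6 and 6.71 points, and for 842 other genes with such exons 4.78, 8.56 and 6.16 points. On chromosomes 5–9, X and Y the *Dnmt3a* KO median of Zfp genes was 7.04 points, against 6.26 points over all genes there. In *Dnmt3b* KO the median of these Zfp genes was below that of all genes there, with 5.03 against 5.85 points. These contrasts were not tested. Other zinc finger families had medians in *Dnmt3a* KO at least as high as the members, as given below. The difference between last exon and body was smaller against narrower parts of the body. Against the 3000 bp just before the last exon the medians of the members were 0.674, 2.92 and 0.150 points, beside 0.939, 1.10 and 0.833 points over all genes. Against the body more than 2000 bp from the start they were 2.60, 6.82 and 2.19 points, beside 1.93, 2.85 and 2.00 points. The profile across the start of the last exon was flat, with 86.1%, 51.9% and 76.9% in the 250 bp before it and 86.6%, 51.9% and 77.8% in the 250 bp after it.

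**Figure D4:**
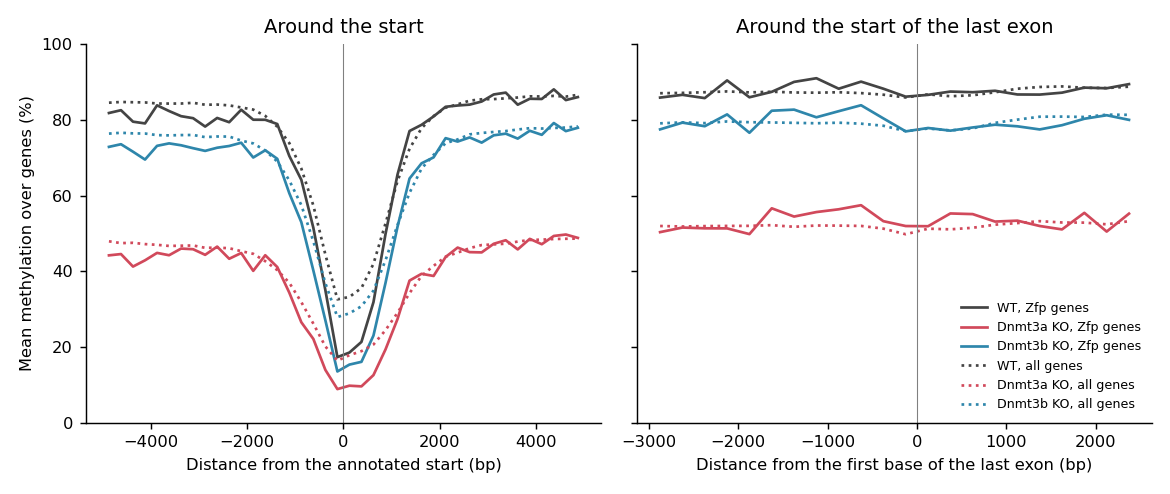
Mean methylation over genes in bins of 250 bp, against the distance in bp from the annotated start (left) and from the first base of the last exon (right), in WT, *Dnmt3a* KO and *Dnmt3b* KO, with solid lines for Zfp genes and dotted lines for all protein-coding genes. The dip at the start is deeper for Zfp genes, 17.3% against 32.6% in WT just before the start, and no step is seen at the last exon.

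Within the finger-coding sequence, methylation could be followed along the repeat unit itself. In 125 members 1215 fingers of the last exon stood in tandem, and they were divided, counting residues from the first cysteine of each finger, into the cysteine knuckle (1–9), the segment that contacts DNA (10–16), the histidine pair (17–21) and the rest up to the next finger (22–28), the linker. There were 143 CpGs per 100 fingers. The knuckle held 35 of them, the DNA-contact segment 47.7, the histidine pair 20.6 and the linker 39.4, and the segments differ in length. For illustration, 2 neighbouring fingers are printed for a CpG-rich and a CpG-poor member, with CpGs in capitals. Those of *Zfp64*, at chr2:168752081-168752248 on the minus strand, hold 15 CpGs, which were at 49.8% in WT, 1.78% in *Dnmt3a* KO cells and 5.47% in *Dnmt3b* KO. Those of *Zfp160*, at chr17:21162595-21162762 on the plus strand, hold 4 CpGs, which were at 98.8%, 76.6% and 91.0%.
Zfp64: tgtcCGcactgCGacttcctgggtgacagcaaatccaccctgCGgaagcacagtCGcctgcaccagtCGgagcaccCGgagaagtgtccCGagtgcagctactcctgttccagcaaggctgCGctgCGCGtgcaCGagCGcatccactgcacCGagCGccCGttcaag
Zfp160: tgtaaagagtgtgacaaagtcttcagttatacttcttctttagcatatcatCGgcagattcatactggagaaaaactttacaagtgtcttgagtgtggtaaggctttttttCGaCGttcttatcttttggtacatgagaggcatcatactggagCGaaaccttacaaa
Both stretches encode the same kind of unit, and their CpGs differ in number and in level.

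Over the reads of all tandem fingers the level was 82.1% in WT, 46.9% in *Dnmt3a* KO cells and 67.7% in *Dnmt3b* KO. The median over the 109 genes with at least 3 finger CpGs, in which each gene counts the same, was higher, with 93.6%, 61.2% and 84.8%. The DNA-contact segment was higher than the other segments in all 3 genotypes, with 85.3% (84.7% to 85.9%), 52.6% (51.7% to 53.5%) and 72.2% (71.4% to 73.0%). The cysteine knuckle was lowest in WT with 78.9% (78.0% to 79.7%) and was at 43.6% and 64.9% in the knockouts. The CpGs were spread unevenly over the genes, as the 10 members with most finger CpGs held 31% of them. When only the 109 members with a last exon at 80% or more in WT were used, the segments lay between 92.0% and 92.9% in WT, between 54.4% and 60.5% in *Dnmt3a* KO cells and between 80.7% and 83.9% in *Dnmt3b* KO. The DNA-contact segment was then still the highest in *Dnmt3a* KO, with 60.5% (59.5% to 61.4%) against 54.4% (52.8% to 56.0%) in the histidine pair. In *Dnmt3b* KO the knuckle, with 83.9% (82.9% to 84.8%), was no longer below it, with 83.2% (82.5% to 83.9%). Within 83 genes the fingers were at a median of -1.38 points in WT, -0.788 in *Dnmt3a* KO cells and -1.61 in *Dnmt3b* KO relative to the other coding bases of the last exon, and they were higher in 31, 37 and 34 of the genes.

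**Figure D5:**
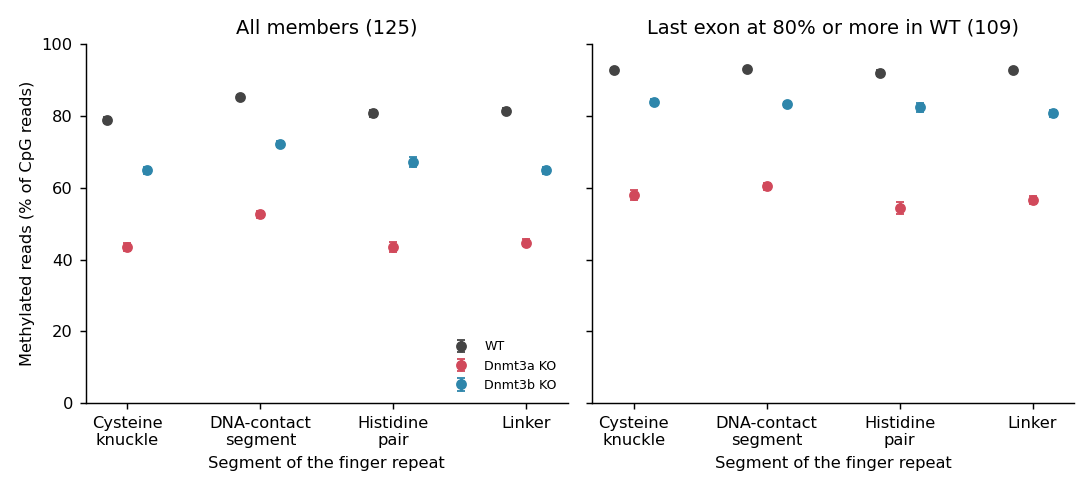
Methylated reads as a percent of all CpG reads in 4 segments of the tandem C2H2 finger repeat, for all 125 members (left) and for the 109 with a last exon at 80% or more in WT (right), in the 3 genotypes, with 95% Wilson intervals as bars. The DNA-contact segment is highest in all 3 genotypes on the left and in *Dnmt3a* KO on the right, where the WT values differ by less than 1 point.

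Members with and without a KRAB pattern were then set side by side. The median last exon was 92.5%, 60.1% and 84.9% for 66 members with the pattern and 92.8%, 56.7% and 85.4% for 111 without. At the promoter the KRAB members were higher in WT, with a median of 7.18% against 3.01%, and 11 of their 66 promoters (16.7%) were intermediate, against 8 of 120 (6.67%). Promoters at 80% or more made up 8 of 66 (12.1%) and 22 of 120 (18.3%). In both knockouts the medians were low, with 1.10% and 3.75% for KRAB members and 0.761% and 1.32% for the others.

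The tandem clusters were described next. With at least 3 members and gaps of at most 300 kb, 11 clusters held 80 of the 189 members. Their last exons had medians of 93.0%, 60.1% and 84.7%, against 92.3%, 55.6% and 85.4% outside clusters. The largest cluster, with 23 members on chromosome 13 between 67139530 and 67927937, had a median over 20 last exons of 90.6% in WT and 56.3% in *Dnmt3a* KO with a range of 34.1% to 68.7%. The 15 members on chromosome 17 between 21520712 and 22593656, of which 14 have a KRAB pattern, had 92.5% and 57.7%, and 13 last exons of a cluster of 14 further along the chromosome, between 32908181 and 33768724, had 95.4% and 62.7%. Small clusters on chromosome 10 (*Zfp781*, *Zfp873* and *Zfp938*) and elsewhere on chromosome 13 (*Zfp808*, *Zfp935* and *Zfp934*) kept more, with 72.8% and 71.0% in *Dnmt3a* KO after 96.1% and 90.0% in WT. Apart from *Zfp873* with 29, their last exons had only 5 to 9 usable CpGs each. The 3 genes *Zfp251*, *Zfp7* and *Zfp647* on chromosome 15 kept 38.1% after 86.2% in WT, with a range of 6.25% to 56.0% in *Dnmt3a* KO. Clusters hold between 3 and 23 genes, so these medians rest on few genes.

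The Zfp genes of chromosomes 5–9, X and Y could only be compared between the knockouts. Their medians in *Dnmt3a* KO and *Dnmt3b* KO were 0.951% and 3.23% at the promoter, 51.1% and 78.7% in the body, and 58.4% and 83.9% in the last exon, against 2.72% and 7.71%, 50.7% and 79.4%, and 55.5% and 84.7% over all genes there. At the promoter 24 of 177 (13.6%) were lower in *Dnmt3a* KO than in *Dnmt3b* KO by more than 20 points, where the background was 32%. In the body 134 of 179 (74.9%) were, where the background was 82.4%, and in the last exon 106 of 169 (62.7%), where the background was 74.3%. The median difference between the knockouts in the last exon was -23.2 points for the Zfp genes and -26.7 points for all genes, a contrast that was not tested.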

How the data were processed

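WGBS tables of J1 ESCs were used for 3 genotypes (WT, *Dnmt3a* KO, *Dnmt3b* KO) with 3 libraries each. The authors aligned reads to mm9 with BSMAP, cleaned them with BSeQC and called CpGs with the mCall module of MOABS, merging the libraries of a genotype into 1 table; versions are not given in the sources used here. The deposited tables hold, per CpG, raw read counts without normalization: all reads (coverage) and methylated reads, in total and by strand. They also hold the methylation ratio, a fraction from 0 to 1 that the authors computed from the counts, which was used only in a check. The alternative with ratios of single CpGs computed them again from the counts. The WT table ends on chromosome 4 at position 140865857, its last row is incomplete and was left out, and later chromosomes were not analysed in WT. Of the 20854367 listed positions checked, 0 were not a CpG of the reference.

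Levels were methylated reads over all reads, summed over CpGs with at least 3 reads in all 3 tables, for windows with at least 3 such CpGs. The read minimum gives wide intervals at windows with few CpGs, and intervals are printed for the genes the results turn on. Genes came from the GENCODE annotation of mm9, with the isoform of the longest coding sequence. C2H2, KRAB and SCAN patterns were searched in its translation. Differences of more than 20 percentage points from WT were counted, members beside all protein-coding genes, with no test. Genes named are a list of known ones, the members with the 3 largest and 3 smallest losses per window and knockout among those at 80% or more in WT with at least 5 (promoter) or 10 CpGs, and the 5 methylated promoters highest in *Dnmt3a* KO. Other genes, such as those at the limits of classes, in clusters, lacking a value or counted as lower in *Dnmt3b* KO, were named after their values were seen. The members and lists were chosen with earlier results of these data known. Alternatives changed the read and CpG minimum, the promoter width, the weighting, the limits, the isoform and the comparison sequence. The single values of 1 gene are not reported here. The steps were tested on simulated data. Python 3.11.15 with numpy 2.4.6, scipy 1.17.1, pandas 2.3.3 and matplotlib 3.10.9 was used.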

Additional observations from a re-analysis of the deposited data

How the results depend on the processing

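No paired analysis was possible because the 3 libraries of a genotype share 1 table, which also means that no replicate could be left out. Of 159 alternative values for 37 results, 109 kept their direction and stayed within the limits set for each result (its interval, or 1.5 times for a count), 49 moved beyond them and 1 reversed; the causes were not tested. Within those limits, the count of 41 promoters in *Dnmt3a* KO ranged from 28 to 58, and the last exons of clustered members relative to the others in *Dnmt3b* KO went from -0.691 to -1.95 points at gaps of up to 1000 kb. Few members lost more than 20 points in *Dnmt3b* KO, and those counts moved. At promoters the count of 5 became 8 with at least 10 reads per CpG, 8 within 250 bp of the start, 26 with a limit of 10 points and 1 with 30 points. In bodies the count of 12 became 6 without the last exon, 61 with 10 points and 1 with 30 points, and in last exons the count of 20 became 13 with the mean of single-CpG ratios, 62 with 10 points and 6 with 30 points. The count of promoters in *Dnmt3a* KO became 23 with at least 10 CpGs per window. The median promoter difference was -0.744 points in *Dnmt3a* KO cells and -0.616 in *Dnmt3b* KO within 250 bp of the start, and -9.86 and -4.90 within 1000 bp. Limits of 10% and 50% gave 33 intermediate promoters instead of 19. The last exon exceeded the rest of the body in WT by 7.19 points with the mean of single-CpG ratios. Clustered members were 0.673 points above the others in the WT last exon at gaps of up to 300 kb and -0.00678 points relative to them at 1000 kb. Against the 3000 bp before the last exon the excess was 0.674, 2.92 and 0.150 points in WT, *Dnmt3a* KO and *Dnmt3b* KO, and against the body more than 2000 bp from the start 2.60, 6.82 and 2.19 points. These comparisons were chosen after seeing the data, as were the isoform with the most exonic bases and leaving out promoters with another unmethylated start, which moved no result beyond its limits. With at least 10 reads, finger levels, again in the order of genotypes, were 81.8%, 45.6% and 67.5% in the knuckle, 84.3%, 46.5% and 66.1% in the linker and 83.97%, 48.4% and 68.8% in the whole repeat, and 82.2% (WT) and 68.6% (*Dnmt3b* KO) in the histidine pair. With members at 80% or more in WT, chosen after seeing the data, they were 92.8%, 58.0% and 83.9% in the knuckle, 92.9%, 60.5% and 83.2% in the DNA-contact segment, 92.0%, 54.4% and 82.4% in the histidine pair, 92.8%, 56.7% and 80.7% in the linker and 92.7%, 58.0% and 82.6% in the whole repeat. Depth was similar between genotypes, and short windows with few CpGs, such as the last exons of CpG-poor members, carry the widest intervals.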

Other observations

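Other zinc finger families of the same chromosomes gave the following values, without a test of their difference from Zfp genes. The Zbtb genes, which pair fingers with a BTB domain, had 29 members with a median promoter of 0.928% in WT. All 29 bodies lost more than 20 points in *Dnmt3a* KO cells and 2 in *Dnmt3b* KO, and of 28 last exons all 28 and 6 did, where the shares over all genes were 94.7% and 3.37% of bodies and 90% and 9.34% of last exons. Their median last exon was at 90.0%, 48.4% and 74.0% in WT, *Dnmt3a* KO and *Dnmt3b* KO. The Zscan and Zkscan genes, which pair fingers with a SCAN domain, numbered 10, and 7 of 9 last exons lost more than 20 points in *Dnmt3a* KO cells and 2 in *Dnmt3b* KO. Within 25 Zbtb genes the last exon exceeded the rest of the body by medians of 11.8, 11.1 and 11.1 points in WT, *Dnmt3a* KO and *Dnmt3b* KO. Within 9 Zscan and Zkscan genes the medians were 14.8, 14.3 and 7.18 points.

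Of 16 genes for partners of KRAB zinc finger proteins, 11 lie on the chromosomes compared. All 11 promoters were at or below 9.77% in WT, the highest being that of *Uhrf1*, so that a loss of 20 points was not possible there. None was counted as lower in either knockout. The shares were 38% and 4.78% over all genes, and 0% and 0% over all genes with a promoter below 20% in WT. All 11 bodies lost more than 20 points in *Dnmt3a* KO cells and 2 in *Dnmt3b* KO, those of *Daxx* (54.2%, 15.1% and 19.9%) and *Ehmt2* (73.6%, 29.3% and 52.3%), where the shares over all genes were 94.7% and 3.37%. *Setdb1*, the methyltransferase recruited through TRIM28, was at 86.3%, 44.5% and 72.3% in the body. These genes were named after their values were seen.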
